A study of Mus musculus with 4 samples.

Results

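The miRNA content of Hca-F, a mouse hepatocarcinoma line with a higher ability to spread to lymph nodes, was set against that of its parent line H22, which is labelled as having no such ability. The comparison covered the mouse miRNAs whose background-subtracted array intensity reached 50 units in at least 1 of both lines. These were 95 of the 414 mouse miRNA names on the array, which came from 417 probes. Of the 95, 66 reached the minimum in both lines, 21 in H22 alone and 8 in Hca-F alone, so that 87 were measured in H22 and 74 in Hca-F. The choice used the level in either line and not the difference between them. A miRNA measured in 1 line alone could still be called 2-fold apart in 1 direction only.

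The series held 4 mouse hepatocarcinoma lines with 1 array per line: H22, Hepa1-6, Hca-P and Hca-F. Per the labels, H22 was a suspension line with no lymphatic metastasis ability, and Hca-F a suspension line with a higher ability. Hca-P, also derived from H22, had a lower ability, and Hepa1-6 was adherent with none. The labels describe Hca-P and Hca-F cells as passaged for about a week in the abdominal cavity of 615 mice, collected from ascites and then cultured in RPMI-1640 with serum, and they repeat this text for every line. How H22 itself was grown before extraction is not stated separately, and no line received a treatment. Total RNA was extracted with TRIzol and labelled with the dye Hy3. Each line was 1 culture as far as the labels say, so a difference between H22 and Hca-F has no replicate check, and no p-value was made from it.

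Each miRNA was read by a capture probe of locked nucleic acid printed in 4 spots. The levels below are the authors' normalized intensities, in which a spot mean was divided by the median of 65 reference probes of the same array. On this scale those probes have a median of 1, and the level of 1 probe was not set against that of another. The SD beside a log2 fold was taken over the spot-by-spot ratios of 4 spots and describes the spread within a pair of arrays, not between cultures. Where a line was under the minimum, it was set to the minimum, a level of 0.136 in H22 and 0.154 in Hca-F, and the fold is written as "at least". For 3 miRNAs (miR-98, miR-322 and miR-31) this bound fell under 1 and no fold is given. Just inside the minimum lay miR-31 at 50.3 units, miR-685 at 54.0 and miR-322 at 54.8. Just outside it lay miR-18a at 49.3, miR-181b at 49.0 and miR-29a at 47.3.

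The arrays fell into pairs that ran along the question asked here, H22 with Hepa1-6, both labelled without metastasis, and Hca-P with Hca-F. At 160 spots of the dye marker Hy3, the foreground of H22 and Hepa1-6 differed by a median of 3 units and by at most 25, on values with a median of 12530 units in H22. Hca-P and Hca-F differed at the same spots by a median of 3 units and by at most 11. Between H22 and Hca-F the median difference was 1026 units and no spot came within 5 units. Within a probe, the scatter of the 4 spots about their mean also moved together within these pairs, with r = 0.65 for H22 and Hepa1-6 and r = 0.77 for Hca-P and Hca-F, against r = 0.16 for H22 and Hca-F. Whether paired arrays were processed together, or marker values were carried over from one array to the other, cannot be told from the files, and the scaling by marker spots used below shares this doubt. The correlations run over the spots of mouse probes at the minimum in both arrays and are a description. H22 and Hca-F lay in different pairs, so the array pair and the line cannot be told apart in this comparison. The value in Hca-P, the line paired with Hca-F, is given beside several of the results below.

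MicroRNAs are short RNAs that load into Argonaute proteins and repress mRNAs, mainly by pairing of the bases near their 5′ end, called the seed, with sites in the target. Members of a family share a seed and so share many predicted targets. The let-7 family represses growth genes such as Ras, Myc and Hmga2, and its maturation is blocked by the RNA-binding protein Lin28. Levels of let-7 are low in early embryos and in many tumours and high in differentiated cells.

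The mature sequences of the miRNAs on which the comparison turns are given here 5′ to 3′, as annotated by RefSeq on the mouse build GRCm38.p6, with the seed (bases 2 to 8) in capitals. A mature sequence was matched for 73 of the 95 miRNAs. The let-7 members measured in either line show how alike the probes' targets are.
let-7a: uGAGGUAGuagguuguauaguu
let-7d: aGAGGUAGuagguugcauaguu
let-7i: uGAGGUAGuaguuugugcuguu
let-7c: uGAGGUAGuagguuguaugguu
let-7b: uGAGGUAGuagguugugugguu
miR-98: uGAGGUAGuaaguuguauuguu
let-7e: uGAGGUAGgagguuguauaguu
Counted from 1 at the 5′ end, with the base of let-7a first, the other members differ from let-7a by these substitutions: U1A and U16C in let-7d, A19G in let-7c, A17G and A19G in let-7b, U9G in let-7e, G11A and A19U in miR-98, and G12U, A17G, U18C and A19U in let-7i. All 7 share the seed GAGGUAG. The other sequences shown are those lower in Hca-F by at least 2-fold under every scaling tried, where the table held one.
miR-697: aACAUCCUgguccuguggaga
miR-207: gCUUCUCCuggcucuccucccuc
miR-23a: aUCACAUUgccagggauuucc
miR-138: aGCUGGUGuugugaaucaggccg
miR-22: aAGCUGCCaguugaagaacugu
miR-361: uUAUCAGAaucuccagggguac
miR-671-5p: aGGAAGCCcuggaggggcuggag
The miRNAs higher in Hca-F with a sequence in the table are shown for their base composition, which is described further on.
miR-762: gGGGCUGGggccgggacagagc
miR-129-5p: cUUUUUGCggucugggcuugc
miR-705: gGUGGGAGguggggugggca
miR-706: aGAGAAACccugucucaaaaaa
miR-760: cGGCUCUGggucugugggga
miR-710: cCAAGUCUuggggagaguugag
miR-763: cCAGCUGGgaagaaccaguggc
miR-298: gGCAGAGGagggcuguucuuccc

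Most miRNAs measured in both lines, 48 of 66, lay within 2-fold. In Hca-F 14 of the 95 (14.7%) were higher by 2-fold or more, 17 (17.9%) were lower and 64 were under 2-fold. Of these 64, 11 were measured in H22 alone and 5 in Hca-F alone. Their folds are bounds or not given, so their true difference may be above 2-fold. The higher group held 11 miRNAs measured in both lines and 3 bounds. The lower group held 7 measured in both lines and 10 bounds, that is, miRNAs under the minimum in Hca-F. The median log2 fold was −0.09 over the 95 with bounds at their value, and 0.07 over the 66 measured in both, with quartiles of −0.53 and 0.65. As a background, the 307 capture probes not designed for mouse that reached the minimum in either line were 2-fold or more higher in 18.9% and lower in 12.7%, with a median log2 fold of 0.23. The share of higher mouse miRNAs was thus below that of probes with no intended mouse target, and the share of lower ones was above it.

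**Figure D1:**
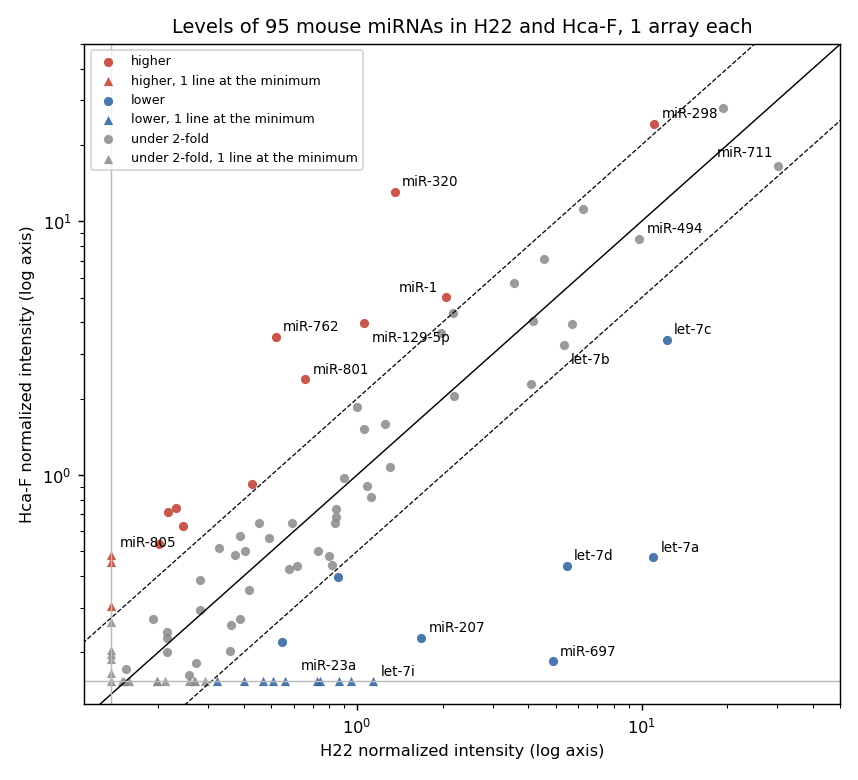
Normalized intensity (log axes) of 95 mouse miRNAs in H22 (x axis) and Hca-F (y axis), 1 array each. Circles are miRNAs measured in both lines and triangles those set to the minimum (grey lines) in 1 line. The solid line marks equal levels and the dashed lines 2-fold. The let-7 members let-7a, let-7d, let-7c and let-7i lie below the lower dashed line, while let-7b lies inside it.

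How many fell on each side depended on the scaling of the arrays. Quantile normalization gave 17 higher and 14 lower. The 75th percentile of the mouse probes gave 31 higher and 13 lower, and unscaled intensities gave 11 and 21. A median over all capture probes gave 11 higher and 24 lower. Scalings added after the data had been seen gave 10 and 27 with the Hy3 marker spots, and 4 and 46 with the 47 reference probes at 100 units or more. The median log2 fold over the 95 ran from −0.94 to 0.47 over these scalings, so directions of small folds have no fixed sign. Under all 7 scalings 13 of the 17 lower miRNAs and 4 of the 14 higher ones kept a 2-fold difference in the same direction. The 13 were miR-697, let-7a, let-7d, let-7i, let-7c, miR-207, miR-23a, miR-23b, miR-138, miR-22, miR-378, miR-361 and miR-671-5p. The 4 were miR-320, miR-762, miR-129-5p and miR-801.

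**Figure D2:**
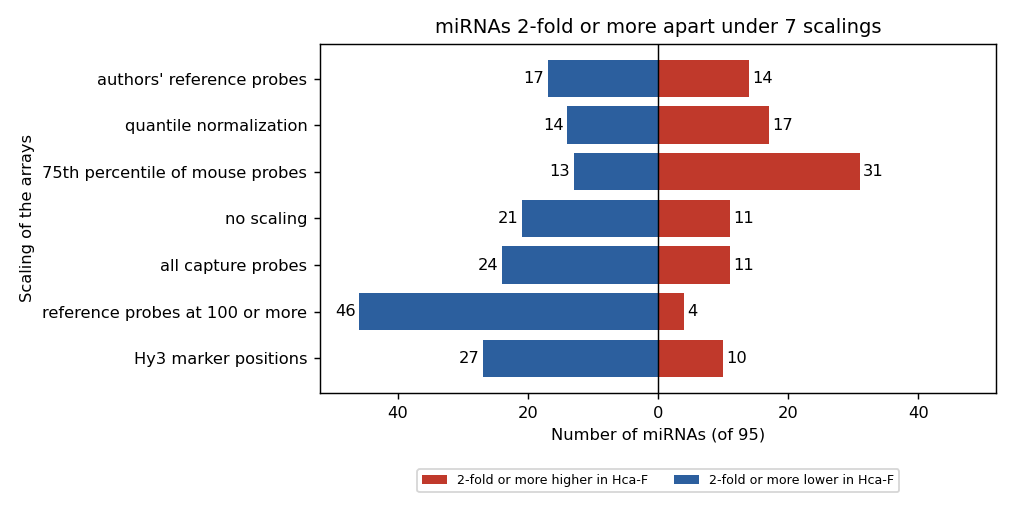
Number of miRNAs, of 95, at 2-fold or more higher (right, red) and lower (left, blue) in Hca-F than in H22 under 7 scalings of the arrays. The authors' reference probes gave 14 and 17. The split ran from 31 higher and 13 lower to 4 higher and 46 lower.

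The let-7 family was lower in Hca-F as a group, with large differences among its members. Of 9 members on the array 7 reached the minimum in either line, 5 of them in both and 2 in H22 alone. Of the 7, 4 were lower by 2-fold or more, against 17.9% of all 95, and 0 were higher, against 14.7%. The 2 measured in H22 alone could not be called higher. The median log2 fold was −1.85, against −0.09 over all 95; without the miRNAs that have no fold, miR-98 among them, the medians were −2.37 and −0.15. Over the 7 scalings the family's median ran from −2.69 to −1.29. Under the minimum in both lines were let-7f, at 10.75 units in H22 and 6.25 in Hca-F, and let-7g, at 13.5 and 4.5.

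The 4 spots of let-7a read 10.1, 9.95, 12.3 and 11.7 in H22. The spots in Hca-F read 0.425, 0.456, 0.573 and 0.444. The lowest H22 spot was far above the highest Hca-F spot, and the fold was 23.2 (log2 −4.54, SD 0.13). For let-7d the H22 spots read 5.54, 5.48, 5.53 and 5.32, and the Hca-F spots 0.468, 0.435, 0.475 and 0.376. This is a fold of 12.5 (log2 −3.64, SD 0.13), again with no overlap. For let-7a and let-7d the RefSeq annotation used held 1 locus each, and these sit together. Their mature sequences lie at chr13:48538239-48538260 and chr13:48536078-48536099 on the minus strand, 2140 bases apart. Whether other loci give the same sequences was not examined.

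For let-7i (chr10:122985698-122985719, minus strand) the H22 spots read 1.20, 1.02, 1.28 and 1.07. All 4 Hca-F spots were under the minimum, between 0.0678 and 0.123, so let-7i was at least 7.40-fold lower. For let-7c the H22 spots read 11.96, 11.9, 11.6 and 13.7, against 3.24, 4.32, 3.03 and 3.08 in Hca-F. The spots did not overlap and the fold was 3.60 (log2 −1.85, SD 0.29). The sequence of let-7c has 2 annotated loci, 1 of them on chromosome 15 with the mature sequence of let-7b 688 bases away. Its partner let-7b differed less. Levels of let-7b were 4.32 to 5.91 over the H22 spots and 2.33 to 4.13 over those of Hca-F (log2 −0.72, SD 0.38).

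Of the remaining measured members, let-7e did not follow let-7a, and miR-98 has no fold. The level of let-7e, which differs from let-7a at U9G alone, was 0.388 in H22 and 0.572 in Hca-F (log2 0.56, SD 0.76), and the spots overlapped. The level of miR-98 was 0.152 in H22, close to the minimum, and under it in Hca-F. A probe can capture family members that differ by a base, and how much each let-7 probe read its neighbours was not tested. The levels in Hca-P, paired with Hca-F by the marker spots, were 5.15 for let-7a, 3.96 for let-7d, 0.572 for let-7i and 5.19 for let-7c. The log2 fold of Hca-F over Hca-P was −3.44 for let-7a, −3.175 for let-7d and −0.60 for let-7c, and its bound for let-7i was −1.89. That comparison uses the same Hca-F array. In Hepa1-6, paired with H22, let-7a stood at 0.396 and let-7d at 0.189, below their levels in Hca-F.

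**Figure D3:**
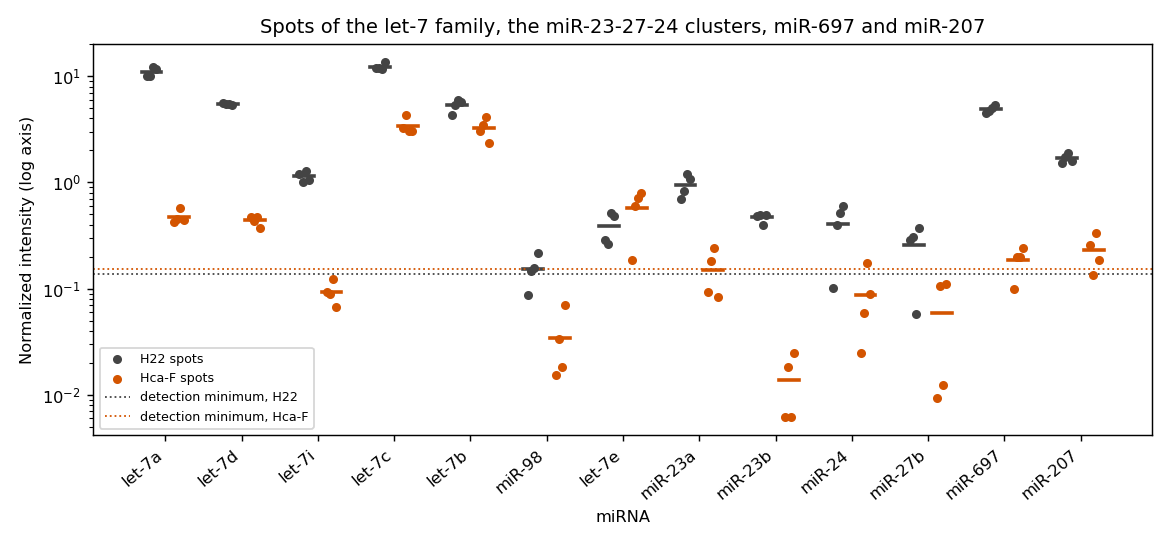
Normalized intensity (log axis) of the 4 spots of 13 miRNAs in H22 (grey) and Hca-F (orange), with bars at the mean of the spots and dotted lines at the minimum of each array. The spots of let-7a, let-7d, let-7i and let-7c are apart in both lines, while those of let-7e overlap. Of the miR-23-27-24 members, all have a Hca-F mean under the minimum.

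Members of the miR-23-27-24 clusters were measured in H22 alone. These clusters, 1 of them on chromosome 8 with miR-23a and 1 on chromosome 13 with miR-23b, give miR-23, miR-27 and miR-24 from shared transcripts, and human miR-23a represses the glutaminase that feeds glutamine into the citric acid cycle. Of 6 names on the array 4 were measured, all in H22 alone, so a call of higher was not possible for them. By bounds, 3 were lower by 2-fold or more, against 10 of the 21 miRNAs measured in H22 alone and 17.9% of all 95. The median log2 fold of the 4 with bounds at their value was −1.49, and it ran from −2.34 to −0.93 over the scalings.

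The H22 spots of miR-23a read 0.692, 0.834, 1.20 and 1.09, and the Hca-F spots 0.0925, 0.182, 0.244 and 0.0832. Although 2 of the Hca-F spots passed the minimum, their mean of 0.150 did not, and miR-23a was at least 6.19-fold lower. For miR-23b the H22 spots lay between 0.401 and 0.496, and those of Hca-F at 0.0247 or below, which gave at least 3.04-fold. Both miRNAs had no overlap between the spots of the lines. For miR-24 the bound was 2.61-fold, but its H22 spots ran from 0.101 to 0.597 and the lowest overlapped those of Hca-F. The bound of miR-27b was 1.66-fold. In Hca-P miR-23a stood at 0.604 and miR-24 at 0.210, while miR-23b was under the minimum there too.

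The miRNAs miR-697 and miR-207 were also far lower in Hca-F. No role is given here for either. The H22 spots of miR-697 read 4.53, 4.67, 4.97 and 5.32, against 0.0986, 0.200, 0.197 and 0.240 in Hca-F. The fold was 26.5 (log2 −4.73, SD 0.49), with the Hca-F mean of 0.184 just above the minimum. The spots of miR-207 read 1.53, 1.74, 1.89 and 1.58 in H22, and 0.259, 0.136, 0.333 and 0.188 in Hca-F. This gave a fold of 7.36 (log2 −2.88, SD 0.55) without overlap. In contrast to let-7a, both were under the minimum in Hca-P. Their levels in Hepa1-6, 0.381 and 0.591, were also below those of H22, so H22 was the highest of the 4 arrays for both. The sequence of miR-697 lies within the span of Sf3a3 (chr4:124731768-124731788, plus strand) and that of miR-207 within Dnaja1 (chr4:40722968-40722990, plus strand).

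Several broadly expressed miRNAs were measured in H22 and not in Hca-F. The H22 spots of miR-22, made from the noncoding transcript Mir22hg, lay between 0.591 and 0.864, and it was at least 4.79-fold lower. Spots of miR-378, known for its place in an intron of Ppargc1b, lay between 0.610 and 0.798 in H22, and the fold was at least 4.69. The X-linked miR-361, within the span of Chm, was at least 3.62-fold lower. Their Hca-F means were 0.0809, 0.0231 and 0.117, all under the minimum. In Hca-P miR-22 was measured, at 0.350, while miR-378 and miR-361 were not. Over the list of broadly expressed miRNAs 7 of 24 were measured, 2 in both lines and 5 in H22 alone. The 5 could not be called higher, and 10 of all 21 miRNAs measured in H22 alone were lower by 2-fold or more. Of the 7, 4 were lower by 2-fold or more and 1 (miR-320) was higher, against 17.9% and 14.7% of all 95. The median log2 fold of −1.32 rests on bounds for 5 of the 7.

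The neuronal miRNA miR-138, which limits dendritic spine size in rat neurons, had H22 spots of 0.777, 1.03, 0.556 and 1.10, and was at least 5.61-fold lower. The bound of miR-671-5p, which directs cleavage of the circular RNA CDR1as in human cells, was 3.30-fold, with H22 spots from 0.248 to 0.760. That of miR-338-5p, in the span of Aatk, was 2.09-fold. Measured in both lines were miR-130a (0.547 in H22 and 0.219 in Hca-F, log2 −1.32, SD 0.24) and miR-125a-5p. The latter, a mammalian relative of the worm developmental miRNA lin-4, stood at 0.857 in H22 and 0.397 in Hca-F (log2 −1.11, SD 0.34). Of the family of miR-99, miR-100 and miR-125, 2 of 5 names were measured, with miR-125b-5p at least 1.90-fold lower.

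Among the 17 lower miRNAs the spots of both lines did not overlap in 16, the exception being miR-24, and 14 were apart by more than 2 combined spot SDs. Set against Hca-P, 6 of the 17 were also 2-fold or more lower in Hca-F: let-7a, let-7d, let-7i, miR-23a, miR-22 and miR-130a. For 11 of the 17 the level in Hca-P lay nearer to that of Hca-F than to that of H22, on the log scale with the minimum as floor. Among the 11, miR-138, miR-378, miR-361, miR-671-5p, miR-23b and miR-338-5p were under the minimum in both Hca-P and Hca-F. Their nearness was thus set by the floor. In Hepa1-6, which shares the marker values of H22, 16 of the 17 lay nearer to Hca-F, all but miR-361.

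The largest fold upward, by the mean of the spots, was that of miR-320, a miRNA that Dicer makes without the nuclear enzyme Drosha. Its Hca-F spots read 10.6, 14.6, 14.7 and 12.5. The H22 spots read 4.74, 0.414, 0.188 and 0.0872, so that 1 spot carried most of the H22 mean of 1.36. The fold of 9.65 (log2 3.27, SD 2.65) is therefore uncertain in size, although every Hca-F spot was above every H22 spot. With the median of the spots in place of the mean, the log2 fold was 5.35.

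The spots of miR-762 were even in both lines, reading 0.482, 0.439, 0.542 and 0.613 in H22 and 3.73, 3.29, 3.59 and 3.42 in Hca-F. This gave a fold of 6.76 (log2 2.76, SD 0.21). For miR-129-5p, a miRNA abundant in brain, the H22 spots read 0.768, 0.902, 1.05 and 1.52, and the Hca-F spots 4.41, 3.87, 3.85 and 3.70. The fold was 3.73 (log2 1.90, SD 0.52) and no spots overlapped. For both, the level in Hca-P, 5.41 and 3.98, was as high as in Hca-F. The sequence of miR-762 lies within Bcl7c (chr7:127708534-127708555, plus strand), and that of miR-129-5p at chr2:94241419-94241439 on the minus strand, with a second locus in the table.

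Names that have been assigned to fragments of other RNAs were also among the higher ones. Of 5 such names 4 were measured, and 3 were higher by 2-fold or more, against 14.7% of all 95 miRNAs and 18.9% of the probes not designed for mouse. Their median log2 fold was 1.76 and ran from 0.92 to 2.32 over the scalings. For miR-720, a piece of a transfer RNA, the H22 spots read 0.234, 0.253, 0.207 and 0.232 and the Hca-F spots 0.669, 0.730, 0.758 and 0.820, a fold of 3.21 (log2 1.68, SD 0.19). For miR-801, a piece of the U11 small nuclear RNA, the H22 spots lay between 0.608 and 0.725 and the Hca-F spots read 0.875, 3.39, 2.77 and 2.53. Its fold was 3.63 (log2 1.86, SD 0.96). The mitochondrial miR-805 was under the minimum in H22 and between 0.367 and 0.592 over the Hca-F spots, at least 3.56-fold. The fourth, miR-690, had a log2 fold of 0.87 with an SD of 1.46, since its first Hca-F spot read 0.641 and the others 4.24 to 5.08. Levels in Hca-P were 1.05 for miR-720, 3.77 for miR-801 and 0.452 for miR-805.

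The muscle miRNA miR-1 stood at 2.05 in H22, with spots from 1.71 to 2.50, and at 5.02 in Hca-F, with spots of 2.81, 6.59, 4.00 and 6.67 (log2 1.29, SD 0.60). Its relative miR-206, which shares targets with it in muscle, was 0.903 in H22 and 0.975 in Hca-F. For miR-298, from the imprinted Gnas region, the H22 spots read 9.05, 8.37, 12.99 and 13.9 and the Hca-F spots 20.6, 26.6, 23.2 and 26.5 (log2 1.13, SD 0.37). A further probe of miR-298 was under the minimum in both lines, at 17 and 12.8 units, so this value rests on 1 of 2 probes that disagree.

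The other higher miRNAs had low levels in H22. The level of miR-705 was 0.217 in H22 and 0.714 in Hca-F (log2 1.72, SD 1.26), with H22 spots spread from 0.0518 to 0.392. For miR-760 the values were 0.245 and 0.629 (log2 1.36, SD 0.82), and for miR-710 they were 0.201 and 0.533 (log2 1.41, SD 1.49). Spots of miR-710 overlapped, as did those of miR-669c, whose log2 fold of 1.10 had an SD of 1.14. Bounds were at least 3.33-fold for miR-706 and at least 2.24-fold for miR-763, which lies within the span of the let-7 target gene Hmga2 (chr10:120448052-120448073, minus strand).

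Among the 14 higher miRNAs the spots did not overlap in 12, and 9 were apart by more than 2 combined spot SDs. Set against Hca-P, 2 of the 14 were 2-fold or more higher in Hca-F, miR-669c and miR-710. That ratio reuses the Hca-F array by which the 14 were chosen. For 10 of the 14 the level in Hca-P lay nearer to that of Hca-F than to that of H22. In Hepa1-6, 11 of the 14 lay nearer to H22. Hca-P and Hca-F share the array pair, descent from H22 and an ability to metastasize, and these cannot be told apart.

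**Figure D4:**
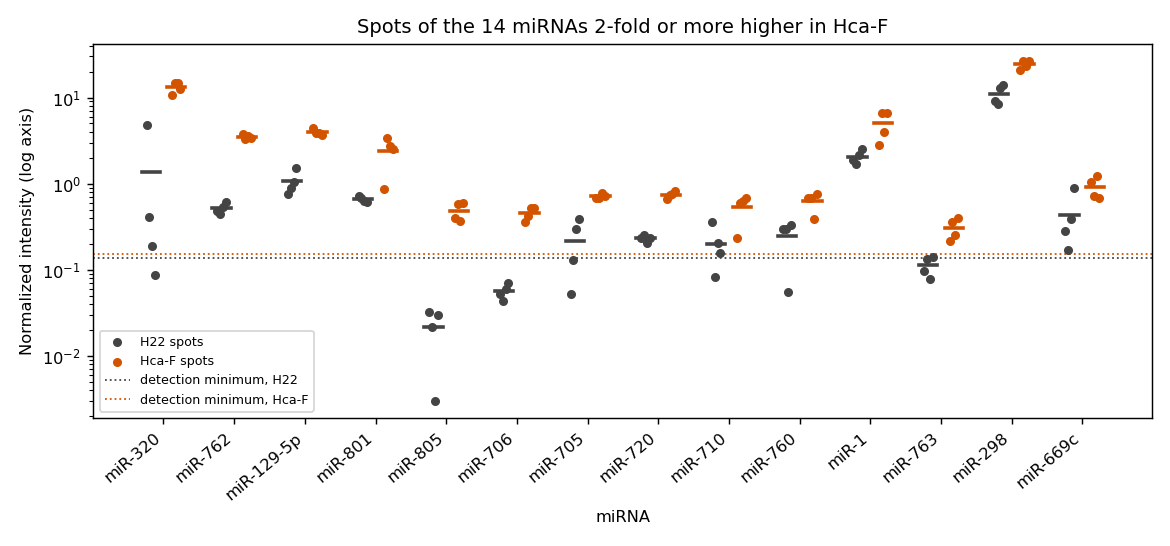
Normalized intensity (log axis) of the 4 spots of the 14 miRNAs at 2-fold or more higher in Hca-F, with H22 in grey, Hca-F in orange, bars at the mean of the spots and dotted lines at the minimum of each array; the lowest spot of miR-805 is drawn at 0.003. The H22 spots of miR-320 run from 0.0872 to 4.74, while those of miR-762 and miR-720 are close together in both lines.

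The miRNAs that did not differ are as much a part of the comparison. Of the 66 measured in both lines, 17 lay within a ratio of 5 to 4 and 34 (51.5%) within 1.5-fold. The 10 nearest to equal were miR-183*, miR-877, miR-200b*, miR-20a, miR-184, miR-206, miR-669a, miR-714, miR-99b* and miR-675-5p. For miR-183* the H22 spots read 3.66, 3.58, 4.71 and 4.64 and the Hca-F spots 4.07, 3.80, 4.19 and 4.05 (log2 −0.04, SD 0.18). For miR-184 they ran from 1.85 to 2.49 in H22 and from 1.33 to 2.72 in Hca-F (log2 −0.10, SD 0.49). The level of miR-675-5p, made from the imprinted transcript H19, was 0.843 in H22 and 0.734 in Hca-F. Equality is relative to the reference probes: over the scalings the log2 fold of miR-183* ran from −0.88 to 0.52.

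Several probes of high signal were under 2-fold. The spots of miR-494 read 8.12, 7.54, 11.02 and 12.5 in H22 and 5.90, 10.2, 9.54 and 8.44 in Hca-F (log2 −0.20, SD 0.45). For miR-711 the spots lay between 24.98 and 32.0 in H22 and between 15.4 and 18.6 in Hca-F (log2 −0.88, SD 0.30), without overlap. For miR-709 they lay between 13.1 and 27.8 in H22 and between 22.6 and 31.1 in Hca-F (log2 0.53, SD 0.71). For miR-689 the log2 fold was 0.85 (SD 0.17), again without overlap. The threshold also separated near values: miR-691, at log2 1.00 just under 2-fold, had spots of 1.82 to 3.01 in H22 and 3.12 to 5.04 in Hca-F.

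The remaining miRNAs under 2-fold spanned the range between. Higher without overlap of the spots was miR-7a, which represses the growth factor receptor Egfr in human glioma cells. Its spots lay between 0.853 and 1.19 in H22 and between 1.26 and 2.23 in Hca-F (log2 0.89, SD 0.25). Lower without overlap were miR-770-3p, with spots of 0.725 to 0.861 in H22 and 0.314 to 0.546 in Hca-F (log2 −0.74, SD 0.46), and miR-193, with 0.583 to 0.668 and 0.351 to 0.496 (log2 −0.49, SD 0.21). The spots of miR-546 also lay apart (log2 −0.89, SD 0.20). Overlapping spots were seen in miR-423-5p, a miRNA made in many tissues, with levels of 0.835 and 0.644 (log2 −0.37, SD 0.89), and in miR-452, with 3.55 and 5.69 (log2 0.68, SD 0.39). The same held for miR-329 (log2 −0.45, SD 0.33), miR-340-5p (log2 0.32, SD 0.23) and miR-695 (log2 0.52, SD 0.52). The miRNA miR-26a represses cyclin genes in liver cancer cells, and 1 of its 2 annotated loci lies in the span of Ctdsp2. It was measured in H22 alone and on uneven spots of 0.0327, 0.0218, 0.338 and 0.401. Measured in Hca-F alone were miR-500, miR-685 and miR-712*, with bounds of 1.39-fold, 1.22-fold and 1.44-fold.

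**Figure D5:**
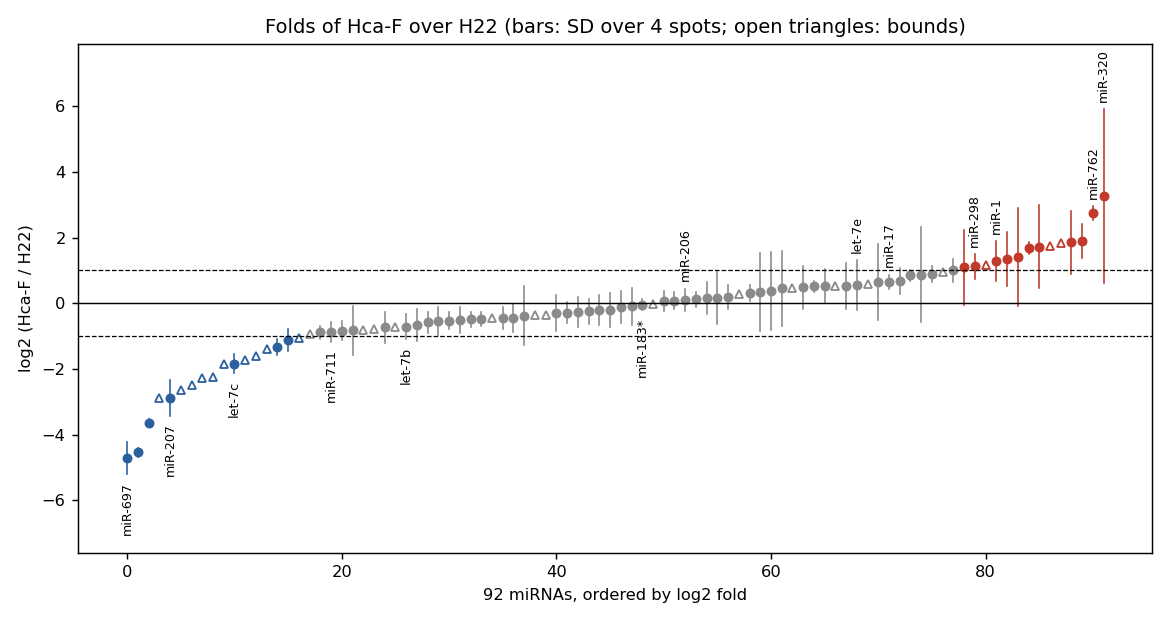
Log2 fold of Hca-F over H22 for the 92 miRNAs with a fold or a bound, in order of size. Bars are the SD over 4 spot-by-spot ratios, open triangles are bounds and dashed lines mark 2-fold. Most values lie between the dashed lines, and the bars of miR-320 and miR-690 are among the widest.

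The counts in the other families and clusters stand against 31 of all 95 miRNAs 2-fold apart. Of 18 names of the miR-17-92 cluster and its paralogs, a growth-promoting group driven by Myc, 4 were measured and 0 passed 2-fold. The level of miR-17 was 0.326 in H22 and 0.515 in Hca-F without spot overlap (log2 0.66, SD 0.22), while miR-20a was near equal. Spots of miR-106b overlapped (log2 −0.58, SD 0.33), and miR-93 was at least 1.76-fold lower. Of the miR-34 family, which p53 induces, miR-34a stood at 1.304 and 1.07 and miR-34c at 0.257 and 0.163, both under 2-fold. A further probe of miR-34c was under the minimum in both lines, at 13.5 and 7.25 units. The 3 measured members of the miR-16 seed family (miR-16, miR-195 and miR-322) were above the minimum in H22 alone, and miR-16 was at least 1.74-fold lower. The medians of the first 2 lists, −0.34 and −0.47, changed sign under at least 1 scaling, and none is given for the miR-16 seed family, whose members were all under the minimum in Hca-F.

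In the Sfmbt2 cluster, a large intronic group of related mouse miRNAs, 5 of 8 names were measured and 1 (miR-669c) passed 2-fold, with a median of −0.27. In the imprinted Dlk1-Dio3 cluster on chromosome 12 only 7 of 46 names were measured and 0 passed 2-fold, with a median of −0.45. The levels of miR-668 were 4.07 in H22 and 2.29 in Hca-F (log2 −0.83, SD 0.28), and those of miR-667 were 5.69 and 3.94 (log2 −0.53, SD 0.26). The bounds of miR-382 and miR-370, measured in Hca-F alone, were 1.499-fold and 1.94-fold higher. Both medians changed sign under at least 1 scaling.

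Of 27 names linked to growth and metastasis 5 were measured (miR-21, miR-31, miR-183*, miR-200b* and miR-206), and 0 passed 2-fold. The 3 measured in both lines, miR-183*, miR-200b* and miR-206, had log2 folds of −0.04, 0.08 and 0.11. The starred names are read by other probes than miR-183 and miR-200b, which were under the minimum in both lines. In H22 miR-183 read 27 units and miR-200b 17.5, and in Hca-F they read 8.5 and 3.75. The level of miR-21 was 0.198 in H22 and under the minimum in Hca-F, with a bound of 1.29-fold. For miR-31, which restrains metastasis of human breast cancer cells in mice, the H22 value lay just above the minimum. Under the minimum in both lines were, among others, miR-10b, miR-126-3p, miR-155, miR-182, miR-221 and miR-222. The hypoxia miRNA miR-210 had H22 spots between 0.395 and 0.480 and Hca-F spots between 0.601 and 0.678 (log2 0.51, SD 0.16), without overlap but under 2-fold.

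Markers of the labelled cell type were not detected at this minimum. All 5 hepatocyte miRNAs on the array, miR-122 included, were under the minimum in both lines, at no more than 24.3 units in H22 and 14.5 in Hca-F. All 5 leukocyte markers were also under it, at no more than 43.8 and 23.3 units, as were both erythroid and both endothelial markers. Of 5 mesenchymal markers 1 was measured, miR-214, with levels of 0.192 and 0.270. Of 4 muscle markers miR-1 and miR-206 were measured, and miR-133a and miR-133b were not. Of 4 neuronal markers counted, miR-138 alone was measured, in H22. A further neuronal marker, read by a joint probe for miR-128a and miR-128b, was left out of that count. It was under the minimum in both lines, at 8.75 units in H22 and 3.75 in Hca-F. In bulk RNA fewer cells of a type and less RNA per cell cannot be told apart.

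The spread between spots bears on how far single folds can be read. Over the 66 miRNAs measured in both lines the median spot coefficient of variation was 18.9% in H22 and 23.1% in Hca-F. The SD of the spot-by-spot log2 fold had a median of 0.41 and ran from 0.13 for let-7d to 2.65 for miR-320. It was above 0.5 in 24 and above 1 in 9: miR-320, miR-710, miR-690, miR-705, miR-688, miR-468, miR-185, miR-669c and miR-351. In miR-185, miR-690 and miR-468 the first Hca-F spot was low: for miR-185 the Hca-F spots read 1.88, 8.17, 11.1 and 7.13, against 4.499 to 4.65 in H22. In miR-688 and miR-351 the third H22 spot was low instead. Of the 64 miRNAs under 2-fold, bounds included, the spots of both lines did not overlap in 22. Among them miR-711, miR-689 and miR-210 were measured in both lines, so spots of 1 pair of arrays could separate at small folds too. Of 17 miRNAs with a mean intensity of 1000 units or more, 6 were 2-fold apart, and of 26 under 200 units, 5 were.

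The control positions put these intensities in scale. The local background lay between 31 and 41 units over the spots of H22 and between 32 and 56 in Hca-F. Empty positions reached 3 units in H22 and 7.75 in Hca-F after subtraction, and spike-control positions 19.8 and 19. The median mouse probe read 11 and 7.5 units, so most mouse probes were under the minimum of 50 in both lines.

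Members with a shared seed did not always move alike. The seed GAGGUAG of the let-7 family covered log2 folds from −4.54 for let-7a to 0.56 for let-7e. The seed AAAGUGC, held by miR-17, miR-20a, miR-93 and miR-106b, covered −0.81 to 0.66. The seed CCCUGAG, held by miR-125a-5p, miR-125b-5p and miR-351, covered −1.11 to 0.46. Pairs of close genes also differed. On chromosome 17 miR-99b*, let-7e and miR-125a-5p lie in the span of Spaca6, with at most 564 bases between any pair, and their log2 folds were 0.16, 0.56 and −1.11. On chromosome 12 miR-382 and miR-668, 972 bases apart, had a bound of 0.58 and a fold of −0.83. In the same direction as each other were let-7a and let-7d, at −4.54 and −3.64, and miR-93 and miR-106b in the span of Mcm7, at −0.81 (a bound) and −0.58.

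Base composition is given as a description of the groups, with no test. Of the mature sequences matched, the 8 of the higher group had a median G+C content of 64.4% (36.4% to 81.8%), the 15 of the lower group 45.5% (36.4% to 69.6%) and the 50 under 2-fold 50.0%. Across the 73 matched miRNAs the correlation of G+C content with the log2 fold was r = 0.21. Bounds entered it at their value, those of miR-98, miR-322 and miR-31 included. Over the 50 matched miRNAs measured in both lines it was r = 0.26. Both values are a description over probes that share 2 arrays. The sequence of miR-762, shown above, is the richest in G and C of the higher group, and that of miR-706 the poorest. Of the matched sequences 4 of 8 in the higher group, 8 of 15 in the lower group and 23 of 50 under 2-fold lay within the span of a protein-coding gene of the RefSeq table, which gives no strand for genes. Where a sequence had several loci, only the first was used.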

How the data were processed

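Arrays were read on a GenePix 4000B scanner, and the authors deposited the intensity of each spot before and after subtraction of the local background, a mean per probe, and a normalized intensity. Per the labels, miRNAs at 50 or more in all samples gave the median normalization factor. The deposited normalized intensity was recovered exactly from the spots (factors of 367 for H22 and 324.5 for Hca-F). Where a name had several probes, the brighter mean over both lines was kept, a rule settled after the values were seen. For miR-744 it kept a probe at 0.418 in H22 and 0.354 in Hca-F, while the dimmer mean, from a probe at 0.509 in H22 and under the minimum in Hca-F, would add miR-744 to the lower group. Folds were computed in Python with numpy 2.4.6 and pandas 2.3.3, and normexp with limma 3.58.1. The fold code was tested on simulated spots. Named miRNAs were all those 2-fold apart, the 10 nearest to equal, the 10 with the highest mean level, those with a spot SD above 1 and the listed families. Older miRNA names were assigned to RefSeq arms by the naming convention of their time. Members and lists were chosen with earlier results of these data known. With 1 array per line, the number of arrays limits the precision.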

Additional observations from a re-analysis of the deposited data

Results flagged for a closer look

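Signal was present on probes that the comparison did not use. Of 1595 probes not designed for mouse, 286 reached 50 units in H22 and 262 in Hca-F, and of 77 miRPlus probes, which carry the maker's own sequences, 14 did so in H22 and 15 in Hca-F. Empty positions reached at most 3 units in H22 and 7.75 in Hca-F. What these probes captured was not tested.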

How the results depend on the processing

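No miRNA called 2-fold apart reversed its direction under the alternatives run, but the median over all miRNAs changed sign. The median log2 fold over all miRNAs, −0.09, was 0.066 after quantile normalization, 0.47 with the 75th percentile, −0.27 without scaling, −0.30 with all capture probes and, in scalings added after seeing the data, −0.94 with reference probes at 100 units or more and −0.41 with the Hy3 markers. The let-7 median, −1.85, was −2.46 after quantile normalization, −1.29 with the 75th percentile, −2.69 with reference probes at 100 or more and −2.16 with the Hy3 markers. The number higher was 31 with the 75th percentile, 4 with reference probes at 100 or more, 22 at 1.5-fold and 8 at 3-fold. The number lower was 11 with a minimum of 100 units, 46 with reference probes at 100 or more, 27 with the Hy3 markers, 27 without a floor (also added) and 28 at 1.5-fold. The number within a ratio of 5 to 4 was 11, against 17, with reference probes at 100 or more. The minimum of 100 units left 72 miRNAs in place of 95; the other settings named changed only the scaling, the floor or the threshold. In all 10 planned settings 8 of 14 higher and 10 of 17 lower miRNAs kept a 2-fold difference. No paired analysis was possible because each line had 1 array. Leaving out an array was not run, since it would leave no comparison.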
